A study of Mus musculus with 2 samples.

Results

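The MS4A genes encode small membrane proteins that cross the plasma membrane several times, and in the mouse most of them lie side by side on chromosome 19. The 9 genes described here, Ms4a1, Ms4a2, Ms4a3, Ms4a4a, Ms4a4c, Ms4a6b, Ms4a6c, Ms4a6d and Ms4a7, were taken by symbol from a count table of 46095 genes and gene models. Reads had been counted for 20541 of these. All 9 symbols were present. The table also held 10 other symbols of the family, which are treated separately.

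Expression had been measured by RNA sequencing in leukaemia-initiating cells of mouse acute myeloid leukaemia, sorted from bone marrow for the surface proteins Mac1 and c-Kit. Both groups came from C57BL/6 mice with a labelled age of 8 weeks. One group was labelled wild type (WT) and the other P2X1 knockout (P2X1-KO), P2X1 being an ATP-gated cation channel encoded by P2rx1. The protocol text names the same groups P2X1-Scr and P2X1-KD, and neither the oncogene that drove the leukaemia nor any pooling of animals is given in the sources used here. With 1 library for each group, differences have no replicate check and no p-value was computed.

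The WT-labelled library held 14658620 counts and the KO-labelled library held 9447894. The count of the targeted gene was not lower in the KO-labelled library, although a count per gene cannot show whether its product was intact. P2rx1 had 27 counts in the WT-labelled library and 45 in the KO-labelled library, which was 2.93-fold higher in the latter (95% interval 1.78 to 4.90). Every direction below is therefore between 2 libraries as labelled. The genes of the sorted proteins were measured in both, Kit at 13.3 and 19.9 CPM (read counts relative to a scaled library size) and Itgam, the alpha chain of Mac1, at 307 and 504 CPM.

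The MS4A proteins include CD20, the B cell surface protein encoded by Ms4a1. They also include the beta chain of the high-affinity IgE receptor of mast cells and basophils, encoded by Ms4a2. Ms4a3 is known as a gene of granulocyte-monocyte progenitors, and its human counterpart was described as a haematopoietic cell cycle regulator. Ms4a4a, Ms4a4c, the Ms4a6 genes and Ms4a7 are best known from monocytes and macrophages, in which MS4A4A has been reported to associate with the beta-glucan receptor Dectin-1 and MS4A proteins have been linked to the lipid receptor TREM2.

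Every member with at least 1 count had the higher value in the KO-labelled library, and 1 member, Ms4a1, had no count in either library. CPM are given on effective library sizes from the trimmed mean of M values (TMM), a scaling that sets most genes to a ratio near 1. Folds are ratios of CPM with exact 95% intervals, and intervals and floors cover counting error only. Because these were bulk samples, more cells of a type and more RNA per cell cannot be told apart.

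Ms4a3, the progenitor-associated member, was the most abundant. It had 788 counts in the WT-labelled library (95% interval 734 to 845) and 2700 in the KO-labelled library (2599 to 2804), or 50.5 and 304 CPM. The KO-labelled library was 6.01-fold higher (5.55 to 6.52), a log2 difference of 2.58. Log2 differences were taken as log2(CPM + 0.5) in the KO-labelled library minus the same in the WT-labelled library, and they understate the change of low genes. Of the 13382 genes whose mean over both libraries reached 1 CPM, 2.71% had a greater log2 difference than Ms4a3.

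The Ms4a6 genes, which are associated with monocytes and macrophages, were higher by similar folds at levels that differed widely. Ms4a6c had 368 counts (331 to 408) and 1343 counts (1272 to 1417), equal to 23.6 and 151 CPM, so that the KO-labelled library was 6.41-fold higher (5.70 to 7.21). Ms4a6b had 89 and 318 counts, or 5.71 and 35.8 CPM, a 6.27-fold higher value (4.94 to 8.03). Ms4a6d was low, with 16 and 55 counts, or 1.03 and 6.19 CPM, and 6.03-fold higher (3.41 to 11.3). The count intervals of the 2 libraries did not overlap for any of these genes once scaled. Summed over the trio, 473 counts stood against 1716, a fold of 6.37 with an interval of 5.75 to 7.07.

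Ms4a4c and Ms4a4a, 2 adjacent genes on the plus strand, lay at the ends of the range. Ms4a4c had 25 counts in the WT-labelled library and 158 in the KO-labelled library, or 1.60 and 17.8 CPM. Its fold of 11.1 (7.25 to 17.7) and log2 difference of 3.12 were the greatest among the members with a mean of at least 1 CPM, and 1.58% of all genes had a greater log2 difference. Ms4a4a had 23 and 42 counts, or 1.48 and 4.73 CPM, which was 3.21-fold higher (1.88 to 5.58) with a log2 difference of 1.40. It was the smallest difference among the members with a mean of at least 1 CPM, and 8.82% of all genes had a greater one.

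Ms4a7, a macrophage-associated member, had no count in the WT-labelled library and 7 in the KO-labelled library (2.81 to 14.4), or 0.788 CPM. Against a floor of 3 counts in the WT-labelled library this was at least 4.10-fold higher. That value leaves out the error of the 7 counts, and the lower bound of the exact interval was 2.53. Ms4a2 had 4 and 8 counts, or 0.257 and 0.901 CPM, and its 3.51-fold ratio had an interval that included 1 (0.941 to 15.9). Ms4a1 was at 0 in both libraries, for which the exact intervals reached 0.237 CPM in the WT-labelled library and 0.415 CPM in the KO-labelled library.

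**Figure D1:**
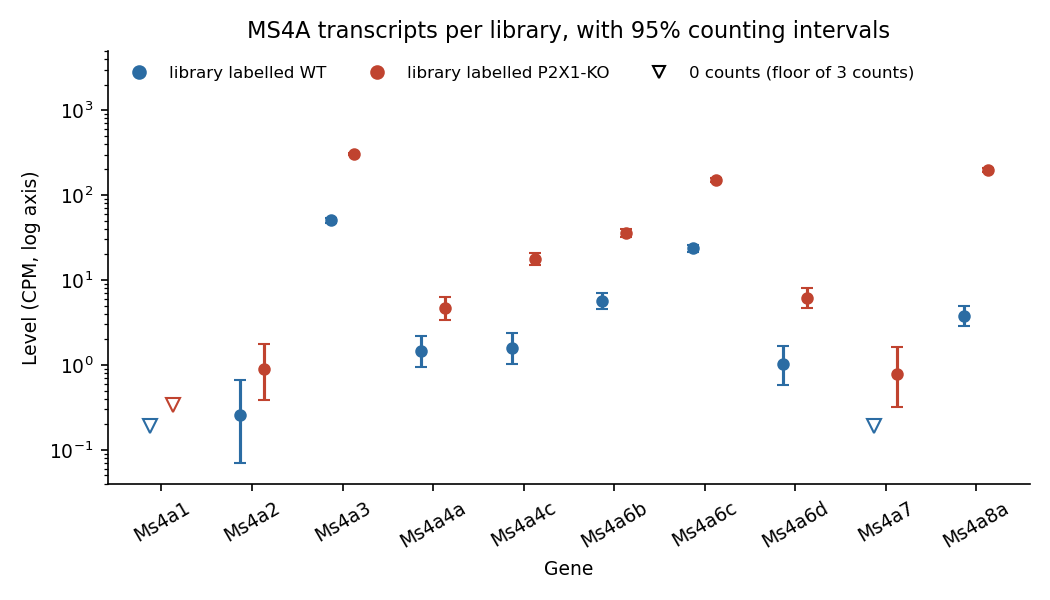
Level of each MS4A gene in the WT-labelled library and the KO-labelled library, in CPM on a log axis. Points are the 2 single libraries, bars are exact Poisson 95% intervals of the counts, and triangles mark a count of 0 drawn at the floor of 3 counts; Ms4a3 stood at 50.5 and 304 CPM, and Ms4a1 was at 0 in both. Ms4a8a, described further on, is not one of the 9 genes.

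That mean of 1 CPM was reached by 6 of the 9 members, Ms4a3, Ms4a4a, Ms4a4c, Ms4a6b, Ms4a6c and Ms4a6d, and each of these also reached 1 CPM in the WT-labelled library alone. All 6 were at least 2-fold higher in the KO-labelled library and 0 were lower. Of the 13382 genes with that mean, 15.5% were called higher by the same rule and 14.0% lower. The whole interval lay above 2-fold for 5 of the 6 members, all but Ms4a4a, and below it for 0, against 10.2% and 7.75% of all genes. With the minimum raised to 5 CPM the higher members were 4 of 4 (12.1% of all such genes, with 10.6% lower), but Ms4a4c passed that minimum only through the KO-labelled library. Over genes with any count they were 8 of 8 (15.5%, with 13.3% lower), and 6 of 8 where the whole interval had to lie above 2-fold (8.23%, with 6.54% below), but Ms4a7 passed only through the KO-labelled library, and the interval of Ms4a2 included 1. The median log2 difference was 2.56 over the 6 members, which ranged from 1.40 to 3.12, and -0.06 over all genes. The plot of all log2 differences shows the members to the right of most genes.

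**Figure D2:**
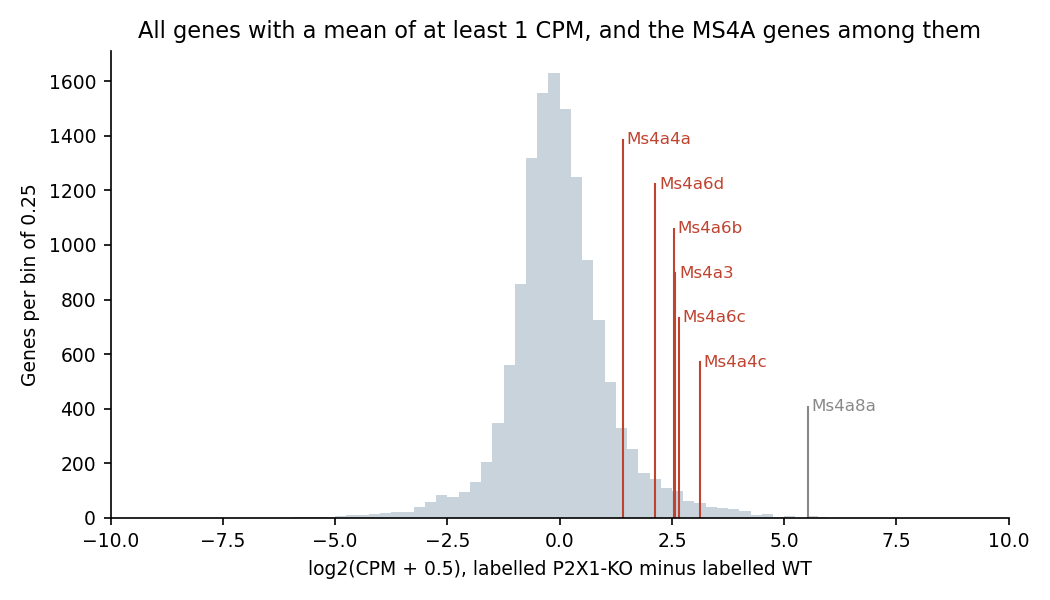
Number of genes by log2 difference between the KO-labelled library and the WT-labelled library, for the 13382 genes whose mean reached 1 CPM. Vertical marks give the MS4A members above that mean, which lay between 1.40 and 3.12, and Ms4a8a in grey; the height of a mark carries no value, and the median of all genes was -0.06.

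The ratio of 2 members' folds does not depend on how the libraries are scaled, so it was used to compare the members with each other. Of the 15 pairs among the 6 members, the 95% interval of the ratio included 1 in 8 and left it out in 7. The intervals were not adjusted for the number of pairs. Ms4a3 and Ms4a6c, with the most counts, gave a ratio of 0.939 (0.814 to 1.08), and Ms4a3 against Ms4a6b gave 0.959 (0.740 to 1.23). For Ms4a6b against Ms4a6c the ratio was 0.979 (0.749 to 1.29). Ms4a6d was too low for a narrow bound, and the fold of Ms4a3 over that of Ms4a6d was 0.997 with an interval of 0.530 to 1.78.

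Ms4a4c and Ms4a4a accounted for the pairs that differed. The fold of Ms4a4c was 1.84 times that of Ms4a3 (1.19 to 2.96), 1.73 times that of Ms4a6c (1.11 to 2.80) and 1.77 times that of Ms4a6b (1.07 to 3.0). The fold of Ms4a3 was in turn 1.88 times that of Ms4a4a (1.07 to 3.21). Between the neighbours themselves, the fold of Ms4a4c was 3.44 times that of Ms4a4a, with an interval of 1.69 to 7.04. Against Ms4a6d, the interval included 1 for Ms4a4c and for Ms4a4a.

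**Figure D3:**
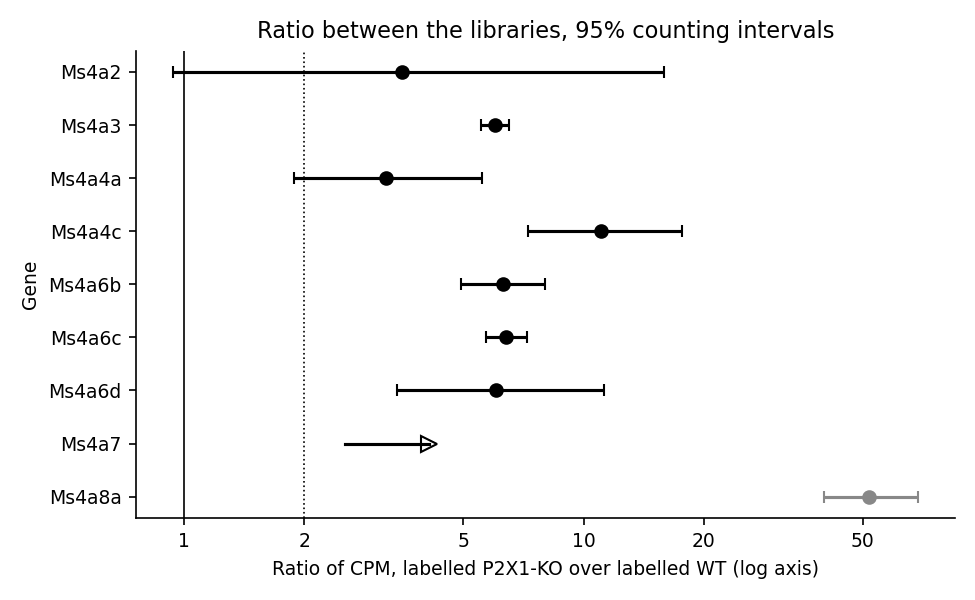
Fold of each MS4A gene in the KO-labelled library over the WT-labelled library, on a log axis, with exact 95% intervals from the counts. The solid vertical line marks a ratio of 1 and the dotted one a ratio of 2, the arrow for Ms4a7 runs from its exact lower bound (2.53) to its value against the floor (4.10), and Ms4a8a is in grey; Ms4a4a had the lowest fold (3.21) and Ms4a4c the highest (11.1) among the members with a mean of at least 1 CPM.

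To compare levels between genes, CPM were divided by the length of all annotated exons in kb. On this scale Ms4a3 led in both libraries, at 26.8 CPM per kb in the WT-labelled library and 161 in the KO-labelled library. Ms4a6c followed at 11.5 and 73.8 CPM per kb. The next genes in the WT-labelled library were Ms4a4a (1.77 CPM per kb), Ms4a6b (1.27), Ms4a4c (0.916) and Ms4a6d (0.592), and the intervals of each neighbouring pair overlapped. In the KO-labelled library the order was Ms4a4c (10.2 CPM per kb), Ms4a6b (7.98), Ms4a4a (5.66) and Ms4a6d (3.57), again with overlapping intervals between neighbours. Ms4a2 and Ms4a7 closed the order in that library at 0.320 and 0.177 CPM per kb.

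The family's total was several-fold apart between the libraries, while its leading members made up like shares of it in each. The 9 genes together had 1313 counts in the WT-labelled library and 4631 in the KO-labelled library, or 84.2 and 521 CPM, a fold of 6.19 (5.82 to 6.59). Without Ms4a3 the fold was 6.46 (5.86 to 7.12). Of the summed level per kb, Ms4a3 made up 62.4% in the WT-labelled library and 61.4% in the KO-labelled library, and Ms4a6c made up 26.8% and 28.1%. The share of Ms4a4c went from 2.13% to 3.86% and that of Ms4a4a from 4.11% to 2.15%. With the length of the longest coding transcript in place of all exons, the share of Ms4a3 was 73.0% and 72.1% and that of Ms4a6c 18.7% and 19.7%, and Ms4a6b then stood above Ms4a4a in the WT-labelled library and above Ms4a4c in the KO-labelled library.

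The members lay on chromosome 19 (mm10) between 11249675 and 11640851, a span of 391 kb, with 4 genes on the plus strand and 5 on the minus strand. From the left, Ms4a1 (ENSMUSG00000024673.9) occupied chr19:11249675-11266241 and Ms4a7 (ENSMUSG00000024672.11) chr19:11321039-11336146, both on the minus strand. Ms4a4a (ENSMUSG00000101389.1) at chr19:11375523-11392790, Ms4a4c (ENSMUSG00000024675.19) at chr19:11404770-11427246, Ms4a6c (ENSMUSG00000079419.4) at chr19:11469366-11482192 and Ms4a6b (ENSMUSG00000024677.13) at chr19:11516512-11531256 were on the plus strand. Ms4a6d (ENSMUSG00000024679.10) at chr19:11586604-11604849, Ms4a2 (ENSMUSG00000024680.12) at chr19:11615523-11623719 and Ms4a3 (ENSMUSG00000024681.11) at chr19:11629496-11640851 were on the minus strand. Ms4a2, with 8 counts or fewer, thus lay between Ms4a6d and Ms4a3, both about 6-fold higher in the KO-labelled library. The low and the abundant members were interleaved along the chromosome.

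Upstream sequence was available in the RefSeq promoter table (GRCm38.p6, 250 bases before to 50 after each start site) for 7 of the 9 members; Ms4a1 and Ms4a6d were not among them. Stretches from the windows of Ms4a6c, Ms4a6b and Ms4a3 are shown because these genes carried most of the family's counts and had like folds. Each is printed 5′ to 3′ on the strand of its gene and stops before the first annotated exon base within its window, at chr19:11469118-11469365 (plus) for Ms4a6c, chr19:11518309-11518452 (plus) for Ms4a6b and chr19:11640852-11641101 (minus) for Ms4a3. The stretches of Ms4a6c and Ms4a3 lie just before the annotated gene, whereas that of Ms4a6b lies in the first intron of the longest annotated transcript, which begins at 11516512, and before the first exons of others. Capitals mark matches to the searched motifs given in the next paragraph.
Ms4a6c: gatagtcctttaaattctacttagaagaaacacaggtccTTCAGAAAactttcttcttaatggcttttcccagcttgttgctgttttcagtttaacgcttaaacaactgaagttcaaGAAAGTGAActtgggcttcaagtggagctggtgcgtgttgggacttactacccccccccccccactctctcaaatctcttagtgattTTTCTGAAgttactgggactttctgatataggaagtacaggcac
Ms4a6b: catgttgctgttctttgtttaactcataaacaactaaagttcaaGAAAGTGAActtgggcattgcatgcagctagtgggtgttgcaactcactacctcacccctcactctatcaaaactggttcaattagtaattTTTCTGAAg
Ms4a3: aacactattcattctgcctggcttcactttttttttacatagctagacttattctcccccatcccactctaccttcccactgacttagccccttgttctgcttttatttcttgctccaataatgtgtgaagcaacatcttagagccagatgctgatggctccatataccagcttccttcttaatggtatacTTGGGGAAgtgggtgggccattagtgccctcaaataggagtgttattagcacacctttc

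The 250 bases before the start site were aligned between the 7 members and Ms4a8a, with 1 window per gene. Other MS4A genes were not aligned. Those of Ms4a6b and Ms4a6c aligned over 172 bases with 148 identical. The aligned part spanned 178 bases of Ms4a6b, whose window holds 144 bases before its first annotated exon base, so it reached past that base. Among these genes the pair with the next most identical bases, Ms4a7 and Ms4a8a, had 34 identical of 43 aligned. Motifs were searched on both strands of the 300-base windows, and no matches to different motifs overlapped in the members' windows. The interferon regulatory factor form GAAANNGAA was found as the same 9 letters in Ms4a6b and Ms4a6c, beginning at positions -206 and -133 relative to the start site, and also in Ms4a7, thus in 3 of 7 genes against 8.56% of all 32851 windows. The C/EBP form TTNNGNAA was found in 6 of the 7 genes, all but Ms4a2, against 40.7% of windows. The PU.1-type ETS core GAGGAA was found in Ms4a3, Ms4a4c and Ms4a7 (28.3% of windows), and the ETS-IRF composite GGAANNGAA in Ms4a6c alone (8.24% of windows). The ETS core began at position -61 in Ms4a4c. In Ms4a3 and Ms4a7 it began after the start site, at 36 and 44, as did the composite in Ms4a6c, at 28. The GATA form AGATAA was found 3 times in Ms4a2, the IgE receptor chain, and in no other member (11.2% of windows). Some genes had more than 1 window, so shares of genes and of windows are not on the same base, and a match is a description of the letters only.

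Like sequence in the exons bears on how far the reads of close members could be told apart. The coding sequences of Ms4a6b and Ms4a6d were identical at 80.5% of bases, those of Ms4a6b and Ms4a6c at 75.7%, and those of Ms4a4a and Ms4a4c at 62.7%. Of all 50-base stretches in its exons, Ms4a6c shared 5.85% with another MS4A gene, Ms4a6b 3.44%, Ms4a6d 2.31% and Ms4a4c 8.19%. Ms4a3 and Ms4a4a shared none. Ms4a4c shared its stretches with Ms4a4b and Ms4a4d, which had at most 1 count. On the opposite strand, 1088 of the 2050 exon bases of Ms4a6c overlapped BE692007, which had 0 counts in both libraries. Of the 50-base stretches of Ms4a6c, 49.6% were shared with BE692007. The sources used here do not say whether counting used strand, so antisense reads within Ms4a6c cannot be told from its own. Nor do they say whether reads over more than 1 gene were left out, which would lower the level and share of Ms4a6c.

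Outside the 9 genes, 1 member of the family stood apart. Ms4a8a, on the minus strand at chr19:11067471-11081102, had 59 counts in the WT-labelled library (44.9 to 76.1) and 1747 in the KO-labelled library (1666 to 1831), or 3.78 and 197 CPM. This was 52.0-fold higher (40.1 to 68.6), and only 13 of the 13382 genes had a greater log2 difference than its 5.52. Its fold was 8.64 times that of Ms4a3 (6.58 to 11.5). The level per kb was 2.11 CPM in the WT-labelled library, between Ms4a6c and Ms4a4a with an interval that overlapped that of Ms4a4a, and 110 CPM in the KO-labelled library, between Ms4a3 and Ms4a6c. The other 9 symbols had at most 2 counts, with 7 at 0 in both libraries. The related membrane protein gene Tmem176b had 10 and 15 counts, a 2.63-fold higher value (1.11 to 6.55).

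Some protein-coding genes next to the cluster were higher in the KO-labelled library, and others lay within 2-fold. Of 30 such genes without an MS4A symbol, within 500 kb of the members' span or inside it, 9 had a mean of at least 1 CPM, of which 4 were at least 2-fold higher in the KO-labelled library, 0 were lower and 5 were within 2-fold. Of all genes with that mean, 15.5% were higher and 14.0% lower, which is the background of these counts. Slc15a3, a transporter of the lysosomal membrane, was 6.03-fold higher (4.97 to 7.36), Tmem109 3.20-fold (2.70 to 3.80) and Stx3, a membrane fusion protein, 8.78-fold (5.09 to 16.1). Gm8369, the only such gene inside the span and named after its values were seen, had 7 and 22 counts, a 5.52-fold higher value (2.28 to 15.3). It is 1 of the 4 higher genes and reached the mean of 1 CPM only through the KO-labelled library. Among the members its coding sequence was most like that of Ms4a4c, identical at 49.6% of bases, and least like that of Ms4a1, at 36.8%. Pairs of the 9 members ranged from 46.2% to 80.5%, so some of its values lay below that range. The identity of unrelated coding sequences was not computed. Oosp2, the next protein-coding gene after Ms4a3, lay under 1 CPM with 0 and 14 counts, which is at least 8.19-fold higher against the floor (exact lower bound 5.82). The genes within 2-fold separated Slc15a3 and Tmem109 from the cluster, as the map of differences shows.

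**Figure D4:**
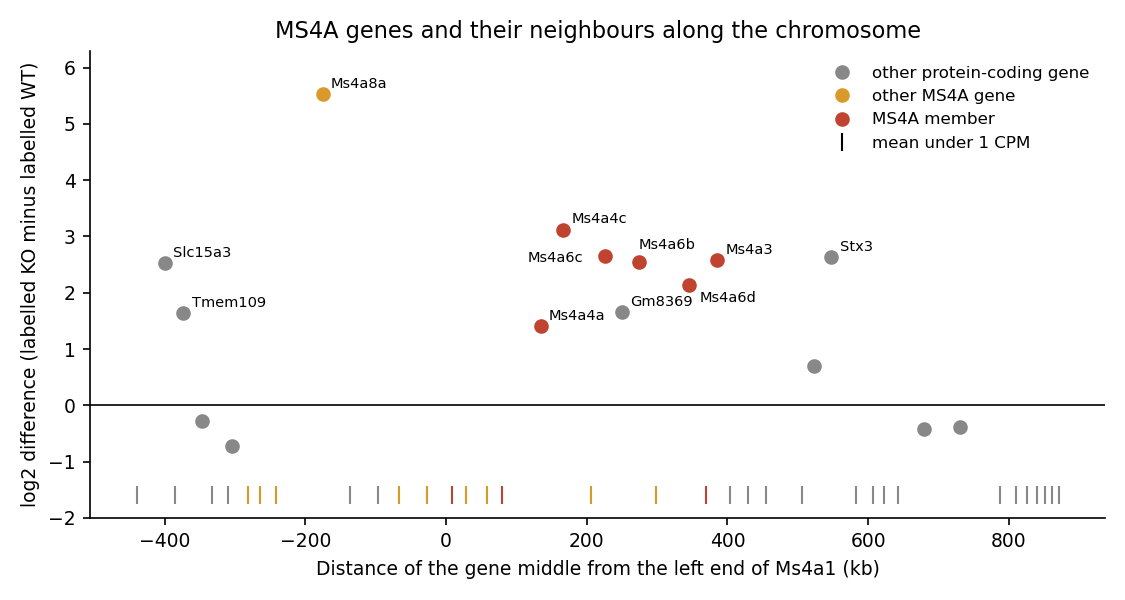
Log2 difference (KO-labelled minus WT-labelled library) of MS4A genes and neighbouring protein-coding genes against the distance of each gene's middle from the left end of Ms4a1, in kb. Short lines at the base mark genes with a mean under 1 CPM; Ms4a8a stood highest at 5.52, and the members above 1 CPM lay between 1.40 and 3.12.

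Genes whose products work with MS4A proteins did not all differ in 1 direction. Fcer1g, the signalling chain that the IgE receptor shares with other Fc receptors, had 279 and 1074 CPM and was 3.85-fold higher in the KO-labelled library (3.71 to 3.99), while Fcer1a, the IgE-binding chain, was at 0 in both. The kinase genes Lyn and Syk were 1.81-fold and 1.14-fold higher in the KO-labelled library. Trem2 had 5 and 130 counts, a 45.6-fold higher value (19.1 to 143). Clec7a, which encodes Dectin-1, had 13.5 and 73.3 CPM and was 5.44-fold higher (4.65 to 6.39), and the inhibitory receptor gene Cd300lf was 1.42-fold higher. Cdk2, a cell cycle kinase, was 1.98-fold lower (1.80 to 2.19), and Cdkn3, the phosphatase that acts on it, was 1.72-fold higher (1.46 to 2.03).

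Marker lists of other cell types were read beside the members, counting genes that reached a mean of 1 CPM and were at least 2-fold apart. By this rule 15.5% of all genes were higher and 14.0% lower, which is the background of the counts in each list. For the B cell list beside Ms4a1, 4 of 12 genes were measured, 2 were higher and 0 lower, and the summed level was 28.7 CPM in the WT-labelled library and 60.6 CPM in the KO-labelled library. Cd79b went from 14.7 to 47.4 CPM, whereas Cd79a was at 1.73 and 1.69 CPM, Cd22 at 0.898 and 0.901 CPM, and Pax5, Ebf1, Vpreb3, Cr2 and Blk were at 0 in both. For the mast cell and basophil list beside Ms4a2, 4 of 11 were measured, 2 were higher and 0 lower, with sums of 60.7 and 121 CPM. Fcer1a, Prss34, Tpsb2, Cma1 and Il1rl1 of that list were at 0 in both libraries. The basophil protease gene Mcpt8 was measured at 34.0 and 23.0 CPM, 1.48-fold lower in the KO-labelled library (1.26 to 1.75), and Hdc, which encodes histidine decarboxylase and was named after its values were seen, at 12.7 and 12.8 CPM. Gata2 was 4.81-fold higher (4.11 to 5.65), and the mast cell protease gene Cpa3 had 1 and 166 counts, a ratio of 291 (51.6 to 11577), so that it passed the minimum only through the KO-labelled library.

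The myeloid lists had higher sums in the KO-labelled library, although not every gene of them was higher. Of the primary granule list, the genes of granulocyte-monocyte progenitors, 9 of 9 were measured. By the same rule 2 were higher (15.5% of all genes) and 0 lower (14.0%). The sums were 5354 and 8885 CPM, a ratio of 1.66. Cebpe (2.72-fold) and Igsf6 (2.27-fold) were the higher genes, whereas Mpo, the myeloperoxidase gene, was 1.88-fold lower in the KO-labelled library (1.77 to 1.995) and the transcriptional repressor gene Gfi1 1.45-fold lower (1.37 to 1.52). Of the monocyte list 10 of 11 were measured, 8 were higher and 0 lower, with sums of 926 and 3446 CPM (ratio 3.72). Of the macrophage list 8 of 12 were measured, 7 were higher and 1, Vcam1, lower. The sums were 407 and 4898 CPM (ratio 12.0), of which Lyz2 alone made up 170 and 4207 CPM. Vsig4 and Timd4 were at 0 in both. Of the 7 higher macrophage genes, 3 passed the minimum only through the KO-labelled library, and Mrc1 (3 and 0 counts) and Cd163 (6 and 0 counts), named after their values were seen, lay below it. Of the late neutrophil list 11 of 11 were measured, 10 were higher and 0 lower, with sums of 3491 and 14128 CPM (ratio 4.05). The remaining gene, Ly6g, had 109 and 36 counts and was 1.73-fold lower in the KO-labelled library (1.17 to 2.59).

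Of the remaining lists, the eosinophil genes had sums of 19.4 and 232 CPM and the stromal genes 14.4 and 246 CPM. Of the 4 measured genes in each, 2 eosinophil and 3 stromal genes passed the minimum only through the KO-labelled library, and of the rest 1 of 2 and 1 of 1 were at least 2-fold higher. Ear6 of the eosinophil list (19 and 0 counts) and Cxcl12 of the stromal list (14 and 0 counts) went the other way and lay below the minimum. Dendritic cell genes had 86.3 and 90.5 CPM, of which Flt3 alone made up 72.0 and 47.4 CPM. Of the 4 measured genes of that list 2 were higher (15.5% of all genes) and 1 lower (14.0%). Cd74 was 4.53-fold higher (3.53 to 5.86), whereas H2-Ab1 was 8.36-fold lower (2.68 to 42.1) and passed the minimum only through the WT-labelled library. T and NK cell genes had 2.18 and 1.13 CPM, erythroid genes 0.898 and 2.14 CPM, and megakaryocyte genes 2.50 and 4.50 CPM. The part of these cell types in the MS4A differences was not tested.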

How the data were processed

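RNA from sorted cells of 2 libraries, 1 labelled WT and 1 labelled P2X1-KO, was analysed from the authors' deposited table of whole-number read counts per gene symbol, which is not normalized. HISAT2 2.0.4 and the build mm10 are named in the submitters' processing notes; for the counting tool, annotation, strand setting and filters these sources give nothing. Of the table's entries, 27 were calendar dates in place of symbols and stayed in the totals.

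Counts were scaled by TMM in edgeR 4.0.16 (R 4.3.3), giving effective library sizes of 15591519 (WT) and 8882591 (P2X1-KO). Log2 differences used a pseudocount of 0.5 CPM. Folds are ratios of CPM with exact Clopper-Pearson 95% intervals given the sum of both counts, counts have exact Poisson intervals, and the floor was 3 counts (0.192 and 0.338 CPM). Genes were called at 2-fold with a mean of at least 1 CPM. Ratios of 2 folds have exact conditional intervals (scipy 1.17.1). The deeper WT-labelled library has the narrower relative interval at a given CPM.

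Coordinates and exons came from GENCODE release M21, on the assembly of mm10, and promoters from RefSeq (GRCm38.p6). The fold intervals were tested on simulated Poisson counts. That is the model they assume, so the test says nothing about spread between animals. The other calculations were not tested on simulated data. The 9 members, the partner genes and 12 marker lists were chosen with earlier results of these data known. Named were all members, P2rx1, Kit and Itgam, other MS4A or Tmem176 genes with at least 10 counts, the partner genes except 1 that is not reported here, up to 2 markers per list and direction by interval bound besides those at 0, and at most 4 neighbours by the same bound. Alternatives covered scaling, pseudocount, expression minimum, call rule, and exon length with GC content.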

Additional observations from a re-analysis of the deposited data

How the results depend on the processing

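Over 54 values of single members under other scalings, pseudocounts and a correction for exon length and GC content, 0 changed sign. Of these, 48 moved by less than the reach of their counting interval on that side, and 6 moved further. The 6 were Ms4a3 (2.40 by total counts, 2.38 by total counts without the 20 most abundant genes), Ms4a6c (2.48 and 2.46 under the same scalings), and Ms4a4c (2.46) and Ms4a7 (0.48) with a pseudocount of 2 CPM. Ms4a7 also went from 1.37 to 3.15 with a pseudocount of 0.1 CPM. That move is among the 48 only because its interval has no upper bound. The count of members at least 2-fold higher ranged from 4 to 8 with the expression minimum and was 5 where the whole interval had to lie above 2-fold, none was lower under any alternative, and the median ranged from 2.34 to 2.64. The summed fold was 5.47 by total counts and 5.41 without the 20 most abundant genes. These scalings shifted the median of all genes by -0.17 and -0.19, and of all called genes 41.5% and 40.4% were then higher, against 52.6% under TMM. Apart from the pseudocount, a change of scaling moves all genes alike, so the members' median relative to the all-gene median, 2.62, cannot depend on it. With the longest coding transcript, chosen after seeing the data like the alternatives for the summed fold, Ms4a8a and neighbours, family shares were 73.0% and 72.1% for Ms4a3 and 18.7% and 19.7% for Ms4a6c. Ms4a8a ranged from 5.36 to 5.60, and 4 neighbours were higher under every scaling. Depth limits Ms4a1, Ms4a2 and Ms4a7. No paired analysis was possible because there was 1 library per group and the labels carry no replicate numbers.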
